A study of Mus musculus with 2 samples.

Results

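Activated neutrophils were liver cells that held neutrophil transcripts, transcripts of the inflammatory genes Tnf, Ccrl2, Ptgs2 and Il23a, and few transcripts of Retnlg, Mmp8 and Prok2, which mature neutrophils express as they leave the bone marrow. They were chosen by counts. A barcode was a member when it had 500 or more UMIs (unique molecular identifiers, each standing for 1 captured transcript), 250 or more genes seen, no more than 20% of its UMIs from the mitochondrial genome, an S100a8 and S100a9 sum of at least 30, at least 1 Csf3r UMI, a Retnlg, Mmp8 and Prok2 sum under 5, and a Tnf, Ccrl2, Ptgs2 and Il23a sum of at least 2. The rule found 148 members among 3035 cells, 8 among the 1149 cells of the PCB126 library and 140 among the 1886 cells of the Control library. These 10 genes chose the members, so their values are given as a description and support nothing.

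The PCB126 library came from the liver of 1 C57/BL6 mouse given PCB126, an industrial pollutant that activates the dioxin receptor, the aryl hydrocarbon receptor (AHR), at 20 µg/kg/day. The Control library came from the liver of 1 C57/BL6 mouse given the peanut oil vehicle. Both mice ate a synthetic diet, were exposed for 5 weeks and fasted for 12 hours before the livers were taken, and both carry an age label of postnatal day 21. Enzymes were used to dissociate the livers, hepatocytes were depleted by low-speed spins and a 30 µm strainer, red cells were lysed, and a droplet 3′ kit was loaded for a target of 6000 cells per library. The treatment label of the Control mouse reads "Untreated", and the protocol speaks of a single gavage although the dose is per day. With 1 mouse and 1 library per group there are no replicates, so mouse, library and treatment cannot be told apart, no test was possible and no p-value is given. Intervals are exact 95% intervals and cover counting error only.

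Neutrophils are short-lived granulocytes made in the bone marrow, packed with antimicrobial granule proteins and recruited in large numbers to an inflamed liver. Signals from microbes, dying cells or cytokines release the transcription factor NF-kB from its inhibitors, and NF-kB then drives chemokines, cytokines, survival factors and its own inhibitors. Interferons act through STAT and IRF factors on another set of genes, which includes antiviral proteins and the machinery that presents peptides on MHC class I molecules.

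The labelled cell type was checked against its markers. Ly6g, the surface protein used to identify mouse neutrophils, had no UMI in the 8 PCB126 members and 25 UMIs in 8 of the 140 Control members. Of 18 neutrophil identity genes, none of them part of the rule, 16 had a UMI in the PCB126 members and 18 in the Control members. A PCB126 member held UMIs of 8 to 15 of these genes (median 12.5) and a Control member of 4 to 17 (median 13), while lymphocytes held 0 to 4 (median 1) in both libraries. Msrb1, a methionine sulfoxide reductase gene, was at 1608 CPM (a gene's UMIs over all UMIs of the members of a library, times 1000000) in the PCB126 members and 1400 CPM in the Control members. Other identity genes differed in level. Wfdc21 had 0 UMIs in the PCB126 members and 607 in the Control members. Hcar2 had a median of 39.5 UMIs per 10000 UMIs of a cell in the PCB126 members and 9.10 in the Control members. In the PCB126 members the marker lists of macrophages, T and NK cells, B and plasma cells, mast cells, platelets and stellate cells were all at 0 UMIs. The dendritic, endothelial and eosinophil lists had 7, 6 and 4 UMIs there, at 234, 201 and 134 CPM. In the Control members these lists were at 50.2, 38.6 and 21.2 CPM. The cholangiocyte list, from 1 UMI in the PCB126 members, was also higher there (33.5 against 13.5 CPM). The monocyte, hepatocyte, red cell and cycling lists had a lower CPM in the PCB126 members. The monocyte list reached at most 5 UMIs in a PCB126 member, against 48 in a Control member, and Ly6c2 and Ccr2 were at 0 in the PCB126 members. Among the Control members 8 held more than 10000 UMIs or at least 10 UMIs of monocyte, macrophage, dendritic, T and NK, B and plasma cell or cycling markers, 7 of them monocyte markers, and 1 of the 8 held 97.8% of the 7139 B and plasma cell UMIs. They are called members with other types' markers below, and no PCB126 cell was among them. Results that rest on these cells are given with the other 132 Control members beside them. Red cell and hepatocyte markers were not part of this definition. At least 10 UMIs of these lists were held by 26 and 4 Control members, so some of the 132 still carry red cell transcripts.

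The word "activated" needs a limit. The activation sum was met by most neutrophils, namely by 55 of the 84 neutrophils of the PCB126 library (65.5%, 95% interval 54.3 to 75.5) and 708 of the 779 of the Control library (90.9%, 88.6 to 92.8), where a neutrophil is a cell that meets the S100a8, S100a9 and Csf3r limits. The members therefore stood apart from most neutrophils by their low Retnlg sum. The remaining activation-positive neutrophils, called Retnlg-high activation-positive below, were 47 PCB126 and 568 Control cells, and those with the activation sum under 2 and the Retnlg sum at or above 5, called Retnlg-high activation-low, were 29 PCB126 and 63 Control cells.

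Promoter sequences of genes described below are shown for the motifs that NF-kB and interferon-activated factors bind. Each is the 200 bases before a start of the gene, 5′ to 3′ on the gene's strand, from RefSeq for GRCm38.p6, with every match to the motif in capitals. Tnfaip3 and H2-K1 have 2 listed starts each, and the window shown was chosen for having the most matches. Both strands of the 250 bases before the start were searched, for GGG, any 2 bases, TT, any base and CC as the NF-kB motif and for GAAA, any 2 bases and GAAA as the interferon motif. The NF-kB motif is shown for the chemokine gene Cxcl2 (chr5:90903699-90903898, plus strand), the inhibitor genes Nfkbia (chr12:55492648-55492847, minus strand) and Tnfaip3 (chr10:19015411-19015610, minus strand), and the MHC class I genes H2-D1 (chr17:35262894-35263093, plus strand) and H2-K1 (chr17:34000334-34000533, minus strand).
Cxcl2: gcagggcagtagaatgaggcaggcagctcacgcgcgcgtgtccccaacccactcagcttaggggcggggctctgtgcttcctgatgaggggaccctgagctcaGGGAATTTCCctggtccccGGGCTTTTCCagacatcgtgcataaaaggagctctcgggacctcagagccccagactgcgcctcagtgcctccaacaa
Nfkbia: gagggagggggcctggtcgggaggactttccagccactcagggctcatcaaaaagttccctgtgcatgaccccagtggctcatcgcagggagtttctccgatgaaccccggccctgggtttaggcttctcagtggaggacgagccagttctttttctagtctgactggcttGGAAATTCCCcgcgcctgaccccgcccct
Tnfaip3: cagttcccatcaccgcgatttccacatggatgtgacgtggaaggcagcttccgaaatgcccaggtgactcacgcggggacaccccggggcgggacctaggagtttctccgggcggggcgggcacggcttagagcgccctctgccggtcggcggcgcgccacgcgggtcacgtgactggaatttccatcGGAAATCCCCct
H2-D1: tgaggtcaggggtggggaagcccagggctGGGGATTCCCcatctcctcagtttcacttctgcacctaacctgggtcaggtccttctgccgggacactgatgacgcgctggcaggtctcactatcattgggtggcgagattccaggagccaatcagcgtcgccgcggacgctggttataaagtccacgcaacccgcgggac
H2-K1: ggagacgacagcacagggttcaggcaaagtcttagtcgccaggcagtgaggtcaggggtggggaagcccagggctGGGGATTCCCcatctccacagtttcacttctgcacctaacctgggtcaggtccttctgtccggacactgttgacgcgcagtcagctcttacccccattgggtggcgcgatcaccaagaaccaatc

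The interferon motif is shown for Gbp2 (chr3:142620463-142620662, plus strand), Irgm1 (chr11:48871421-48871620, minus strand) and Rsad2 (chr12:26456453-26456652, minus strand), which all had a higher CPM in the PCB126 members than in the Control members.
Gbp2: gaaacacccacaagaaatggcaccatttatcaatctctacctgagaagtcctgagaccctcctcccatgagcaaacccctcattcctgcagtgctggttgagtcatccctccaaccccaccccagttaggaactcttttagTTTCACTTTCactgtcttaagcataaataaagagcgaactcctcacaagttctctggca
Irgm1: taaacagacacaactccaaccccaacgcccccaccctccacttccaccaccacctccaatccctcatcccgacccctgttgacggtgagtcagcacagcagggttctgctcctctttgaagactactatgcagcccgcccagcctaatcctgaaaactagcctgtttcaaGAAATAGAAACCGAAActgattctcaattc
Rsad2: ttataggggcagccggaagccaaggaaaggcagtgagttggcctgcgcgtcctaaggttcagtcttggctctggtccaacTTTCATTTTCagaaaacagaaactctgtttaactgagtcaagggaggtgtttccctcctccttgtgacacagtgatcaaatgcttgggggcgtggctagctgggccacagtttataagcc

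The matches in Cxcl2 began 97 and 78 bases before the start, and those in H2-D1 and H2-K1 lay in the same stretch of letters 171 and 125 bases before it. The 2 matches in Irgm1 overlap. Over the 27025 genes with a window in the table, 4.71% held the NF-kB motif and 3.46% the interferon motif. A gene with several starts was counted when any of its windows held the motif. The NF-kB motif was in the windows of 7 of 21 genes of the NF-kB list (33.3%), 6 of 9 chemokine genes (66.7%) and 6 of 13 MHC class I genes (46.2%). The interferon motif was in 9 of 21 interferon-stimulated genes (42.9%), 3 of 13 MHC class I genes (23.1%) and 0 of 21 genes of the NF-kB list. Matches were not limited to genes that were higher: the window of Ifitm2, called lower in the PCB126 members, held the interferon motif, and those of Cxcl1 and Cxcl9, also called lower, held the NF-kB motif. A match describes letters only.

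Activated neutrophils were rarer in the PCB126 library. They were 8 of 1149 PCB126 cells (0.696%, 0.301 to 1.37) and 140 of 1886 Control cells (7.42%, 6.28 to 8.70), a ratio of 0.0938 (0.0397 to 0.190). Of the neutrophils they were 9.52% (4.20 to 17.9) in the PCB126 library and 18% (15.3 to 20.9) in the Control library, a ratio of 0.530 whose interval of 0.224 to 1.07 includes 1. The lower share of all cells thus went with fewer neutrophils of any kind, 84 among the PCB126 cells and 779 among the Control cells.

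The mitochondrial limit bore on these shares. The limit alone removed 1698 PCB126 barcodes and 412 Control barcodes, and the members had a median mitochondrial share of 14.4% (8.56 to 19) in the PCB126 library and 9.30% (2.86 to 18.7) in the Control library. Another 14 PCB126 barcodes and 5 Control barcodes met every other part of the rule. With a limit of 50% there were 22 PCB126 and 144 Control members, which made 17.3% of the PCB126 neutrophils and 18.1% of the Control neutrophils. With a limit of 10% there were 1 PCB126 and 82 Control members, 4.0% of the PCB126 and 15.2% of the Control neutrophils. The part of the mitochondrial share in the difference between the libraries was not tested.

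**Figure D1:**
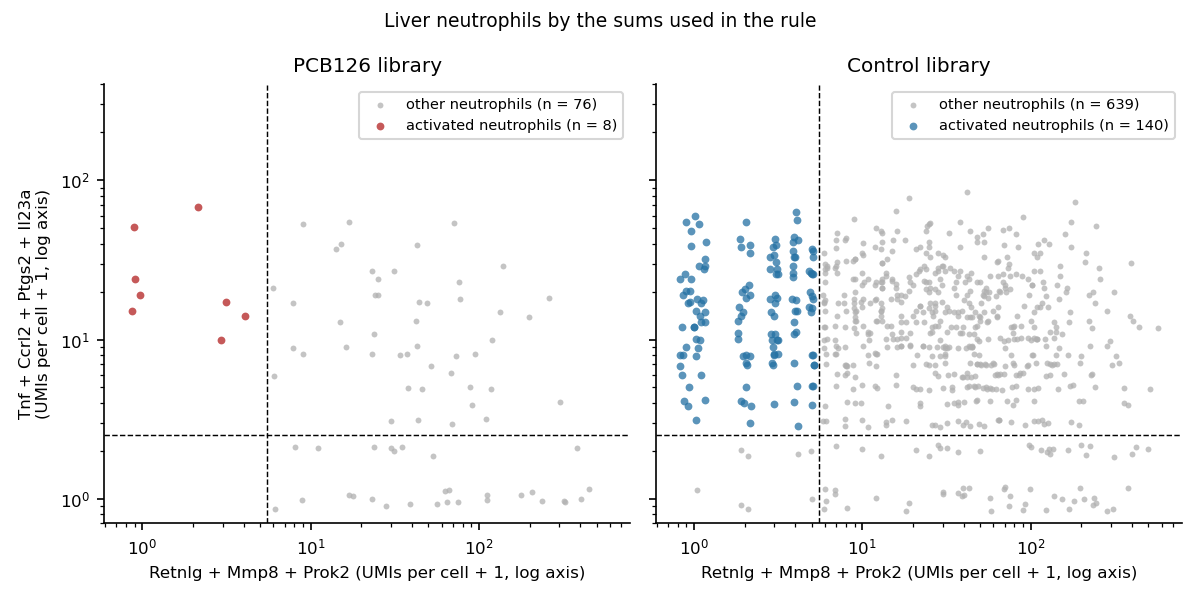
Each point is 1 neutrophil of the PCB126 library (left, 84 cells) or the Control library (right, 779 cells), by its summed UMIs of Retnlg, Mmp8 and Prok2 (x) and of Tnf, Ccrl2, Ptgs2 and Il23a (y), both plus 1 on log axes and spread slightly sideways. Coloured points left of the vertical line and above the horizontal line are the 8 PCB126 and 140 Control members, and in both libraries most neutrophils lie above the horizontal line.

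S100a8 and S100a9 code for the subunits of the calcium-binding protein calprotectin. The S100a8 and S100a9 sum of a member had a median of 58 UMIs (35 to 76) in the PCB126 library and 152.5 (35 to 5109) in the Control library. The activation sum had a median of 17 (9 to 67) in the PCB126 members and 15 (2 to 62) in the Control members. The Retnlg sum had a median of 0.5 (0 to 3) in the PCB126 members and 1.5 (0 to 4) in the Control members. Members were close to some limits. A Retnlg sum of 3 or 4 was held by 1 PCB126 and 42 Control members, and a sum of 5 or 6 kept 2 PCB126 and 39 Control cells out. An S100 sum of 30 to 39 was held by 3 PCB126 and 7 Control members, and a sum of 20 to 29 kept 1 PCB126 and 6 Control cells out. A Csf3r count of 1 was held by 1 PCB126 and 12 Control members, and a count of 0 kept 0 PCB126 and 6 Control cells out. An activation sum of 2 or 3 was held by 0 PCB126 and 12 Control members, and a sum of 0 or 1 kept 0 PCB126 and 8 Control cells out. The S100 sum of lymphocytes, which do not make these proteins, had a median of 0 and a highest value of 1 in 119 PCB126 cells, and a median of 1 and a highest value of 6 in 83 Control cells.

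The 8 PCB126 members held 29857 UMIs in all and the 140 Control members 518396, with a median depth of 3598.5 UMIs per PCB126 member and 3050.5 per Control member. Genes were compared when the mean CPM of both libraries was at least 50, which 2120 genes met. A gene was called at a ratio of 2 or more in either direction. A gene under 50 CPM in 1 library passed only if it was above 50 CPM in the other. For such genes the filter itself favoured a call. In the PCB126 members 427 genes (20.1%) were called higher and 474 (22.4%) lower. Requiring the interval to lie past 1.5 as well left 164 genes (7.74%) higher and 67 (3.16%) lower. The median log2 ratio over all 2120 genes was 0.29 (0.12 with the 88 genes that had 0 UMIs in a library set to their bound), and every list median below is read beside it. With each member thinned to 1000 UMIs, 987 genes were called higher and 456 lower, and that median was 1.13.

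Among the rule genes, Tnf, the cytokine tumour necrosis factor, had 44.8, 0, 35.6, 0, 0, 74.1, 13.2 and 24.8 UMIs per 10000 UMIs in the 8 PCB126 cells (ordered here and below by their Ccl4 UMIs), against a lowest of 0, a median of 9.09 and a highest of 64.2 in the Control cells. Ccrl2, an atypical chemoattractant receptor, had a median of 23.4 in the PCB126 cells and 24.1 in the Control cells. Il23a, a subunit of the cytokine IL-23, was present in 1 of 8 PCB126 cells and 56 of 140 Control cells. Of the 4 activation genes, 5 PCB126 cells had 3 and none had all of them, while 27 Control cells had all 4.

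Of the chemokines, Ccl3 and Ccl4, which attract monocytes and natural killer cells, were called higher in the PCB126 members, and the neutrophil attractant Cxcl2 was not called. Ccl3 had 212, 196, 68.0, 30.9, 2.81, 82.3, 0 and 0 UMIs per 10000 in the 8 PCB126 cells, against a lowest of 0, a median of 3.26 and a highest of 156 in the Control cells. Ccl4, its close relative, had 329, 90.4, 90.6, 70.6, 14, 2.74, 0 and 0 UMIs per 10000 in the PCB126 cells, against a median of 0 and a highest of 215 in the Control cells. For both genes the ranges overlapped, but 6 of 8 PCB126 cells had a UMI, against 77 of 140 Control cells for Ccl3 and 24 of 140 for Ccl4. Summed over members, Ccl3 was 6.45 times higher (5.55 to 7.47) and Ccl4 14.4 times higher (12.2 to 17). The first of the 8 cells held 70.5% of the Ccl4 UMIs, and without it the ratios were 4.02 for Ccl3 and 5.29 (4.09 to 6.77) for Ccl4.

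Cxcl2, a ligand of the neutrophil receptor CXCR2, was the most abundant chemokine. It had 676, 313, 479, 251, 67.3, 447, 236 and 57.8 UMIs per 10000 in the PCB126 cells, against a lowest of 0, a median of 258 and a highest of 1016 in the Control cells. Every PCB126 value lay inside the Control range. The ratio of the sums was 1.39 (1.30 to 1.48), and 1.06 without the Ccl4-richest cell. Cxcl10, an interferon-induced ligand of CXCR3, was seen in 2 of 8 PCB126 cells and 15 of 140 Control cells, with a ratio of 17 that those 2 cells carried. Of 15 chemokine genes 7 could be compared, 3 of which were called higher (Ccl3, Ccl4 and Cxcl10) and 2 lower (Cxcl1 and Cxcl9), with a median log2 ratio of 1.04 (1.00 with the gene at 0 set to its bound). Cxcl1 had 0 UMIs in the PCB126 members and 62 in the Control members, and Cxcl9 was seen in 1 of 8 PCB126 cells. Without the Ccl4-richest cell the intervals of both genes included 1, with upper bounds of 1.32 for Cxcl1 and 1.18 for Cxcl9.

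Among the cytokines outside the rule Csf1, Il1a, Il1rn and Tgfb1 were called higher in the PCB126 members, and Il1b was not. Il1b, which codes for interleukin-1 beta, had 37.9, 24.1, 142, 0, 0, 211, 90.3 and 231 UMIs per 10000 in the PCB126 cells, against a median of 82.4 and a highest of 402 in the Control cells, and 9244 against 7913 CPM in the sums. Csf1, the macrophage growth factor, was 4.57 times higher in the PCB126 members (3.49 to 5.93; present in 6 of 8 and 75 of 140 cells) and 3.30 times without the Ccl4-richest cell. Il1rn, the antagonist of the interleukin-1 receptor, was 3.32 times higher (2.48 to 4.38), with 59.0% of its UMIs in 1 cell and a ratio of 1.69 without it. Il1a was 10.3 times higher (6.24 to 16.9) but was present in 3 of 8 and 15 of 140 cells. Of 21 cytokine genes 10 could be compared, 5 called higher (Csf1, Il1a, Il1rn, Tgfb1 and the rule gene Tnf) and 1 lower (the rule gene Il23a), with a median log2 ratio of 1.04. Without the rule genes 4 of 8 were called higher and none lower, with a median of 1.17.

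**Figure D2:**
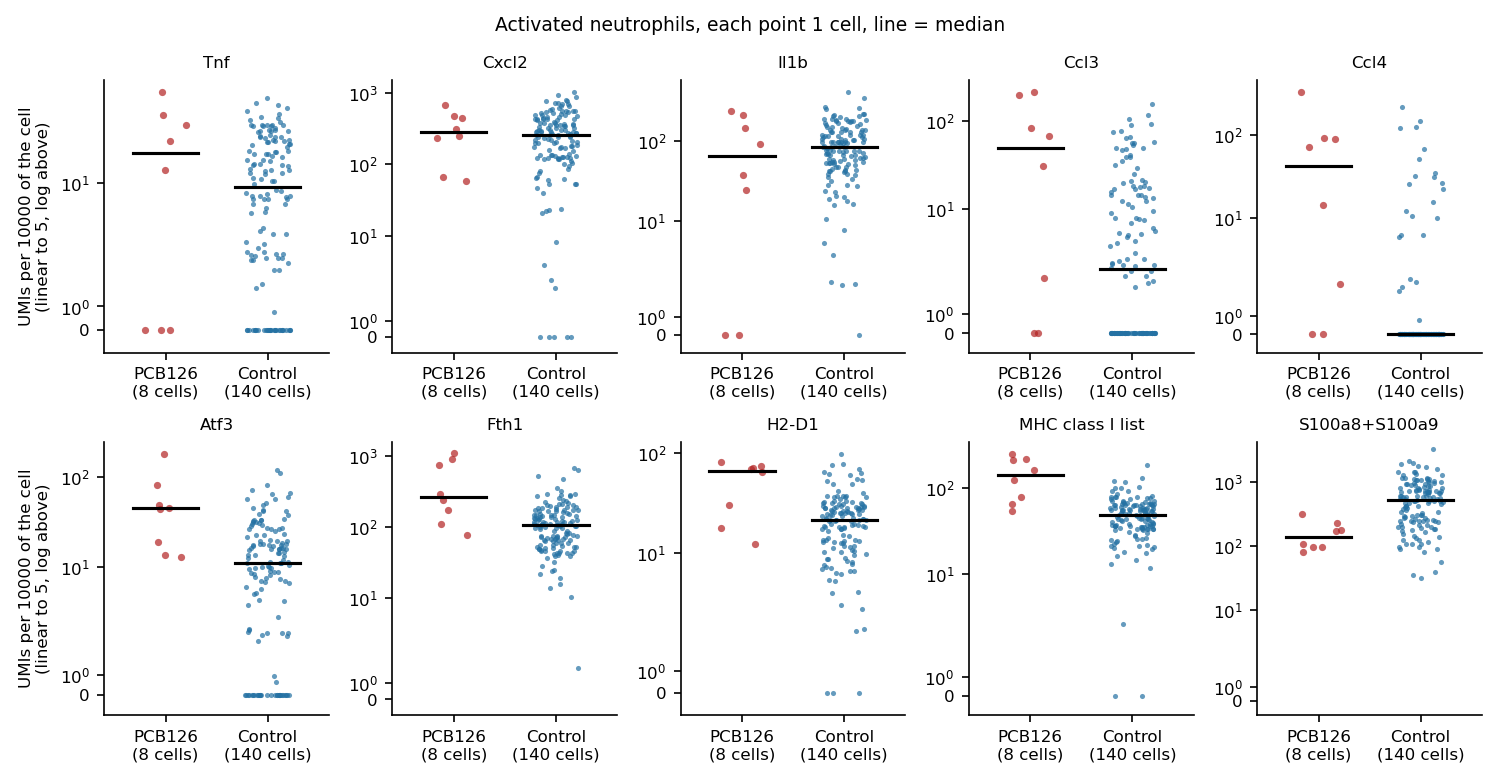
Each point is 1 activated neutrophil, with 8 PCB126 cells to the left of 140 Control cells in every panel; the y axis gives UMIs per 10000 UMIs of the cell for the gene or sum named above the panel, linear to 5 and logarithmic above, and black lines are medians. Ccl3, Ccl4, Atf3, Fth1, H2-D1 and the MHC class I list have higher medians in the PCB126 cells, S100a8+S100a9 a lower one, and the ranges overlap in every panel.

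NF-kB genes as a list did not stand apart from the background. Of 25 genes 23 could be compared, 5 were called higher in the PCB126 members (Birc3, Gadd45b, Irf1, Sod2 and Traf1) and 4 lower (Nfkb2, Nfkbie, Rela and Relb), with a median log2 ratio of 0.32. Without the Ccl4-richest cell, Nfkb2, Rela and Relb held 1 UMI each in the PCB126 members and Nfkbie 2. The intervals of these 4 genes, and of Sod2 and Traf1, then included 1, while those of Birc3, Gadd45b and Irf1 lay above 1. The list sum per cell was 414, 57.3, 392, 322, 44.9, 686, 247 and 154 UMIs per 10000 in the PCB126 cells, against a lowest of 6.55, a median of 263 and a highest of 599 in the Control cells. The PCB126 cells thus fell on both sides of the Control median, 4 above and 4 below. Nfkbia, the inhibitor that NF-kB itself induces, had a ratio of 0.94 (0.811 to 1.08) and Icam1, the adhesion molecule that binds leukocyte integrins, 1.19 (0.782 to 1.75). Irf1, a transcription factor induced by interferon gamma and NF-kB, was 2.86 times higher (2.14 to 3.77). Sod2, the mitochondrial superoxide dismutase, was 2.62 times higher (1.72 to 3.86) but was present in 3 of 8 cells, with a ratio of 1.41 without the Ccl4-richest cell. Traf1 had 2.07, and 0.928 without that cell.

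Immediate early genes, which respond within minutes to stress or a stimulus, leaned higher in the PCB126 members. Of 23 genes 19 could be compared, 8 were called higher (Atf3, Dusp1, Egr1, Fos, Ier2, Ier5, Maff and Nr4a3) and Fosb lower, with a median log2 ratio of 0.95. Fos had 0, 24.1, 9.71, 0, 0, 0, 139 and 182 UMIs per 10000 in the PCB126 cells. Its median was 4.85 there and 7.12 in the Control cells. Without the Ccl4-richest cell Nr4a3 held 3 UMIs in the PCB126 members, with an interval of 0.54 to 9.30. Fosb then had a ratio of 0.601 (0.326 to 1.02). The intervals of the other genes called higher lay above 1. Atf3, a stress-induced repressor of inflammatory genes, had 19, 81.4, 12.9, 48.5, 44.9, 13.7, 44.1 and 176 UMIs per 10000 in the PCB126 cells, against a median of 11.2 and a highest of 117 in the Control cells. All 8 PCB126 cells were above the Control median for Atf3 and for Egr1, and the ratios of the sums were 3.49 (2.92 to 4.15) and 3.44 (2.53 to 4.59). In the Retnlg-high activation-positive neutrophils of the same livers the list had a median log2 ratio of 1.02, Atf3 a ratio of 3.33 and Egr1 3.21. In that class 167 of 1991 genes (8.39%) were called higher and 132 (6.63%) lower. Since dissociation also induces these genes, the mitochondrial shares above are to be read beside them; the part of tissue handling in this difference was not tested.

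In MHC class I presentation every compared gene was called higher. The list holds the class I heavy chains, B2m, the peptide transporter genes Tap1 and Tap2, the immunoproteasome subunits and the regulator Nlrc5. Of 15 genes 13 could be compared, all 13 were at least 2-fold higher in the PCB126 members and 12 also had their interval past 1.5, with a median log2 ratio of 2.70. The filter in part fixed this count and median. H2-Q6, Nlrc5 and Tap1, at 5.79, 19.3 and 25.1 CPM in the Control members, could pass only if at least 2-fold higher. Only a higher PCB126 value could let in H2-Q4, H2-T23 and H2-Q7, at 34.7, 38.6 and 42.4 CPM in the Control members. H2-D1, B2m, H2-K1 and Tapbp, at 2162, 1796, 532 and 133 CPM there, passed on their Control level alone. The list sum was 212, 54.2, 217, 247, 123, 162, 66.1 and 79.8 UMIs per 10000 in the PCB126 cells, against a lowest of 0, a median of 48.5 and a highest of 187 in the Control cells. All 8 PCB126 cells were above the Control median and 3 were above the highest Control cell.

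H2-D1, the most abundant heavy chain, had 81.0, 12.1, 64.7, 75, 70.1, 68.6, 17.6 and 30.3 UMIs per 10000 in the PCB126 cells, against a median of 21.5 and a highest of 97.5 in the Control cells. Its ratio was 2.43 (2.04 to 2.88), and H2-K1 and B2m, the invariant light chain, had ratios of 2.77 (1.97 to 3.82) and 2.33 (1.92 to 2.81) with a UMI in all 8 PCB126 cells. Tap1 had 14 UMIs in 4 of 8 PCB126 cells and 13 UMIs in 11 of 140 Control cells, a ratio of 18.7 (8.15 to 43.2), and all 4 PCB126 cells were above the highest Control cell. H2-Q6 had 11 UMIs in 5 PCB126 cells and 3 UMIs in 2 Control cells, a ratio of 63.7 (16.8 to 355). The heavy chain genes are near-identical copies, so how reads were split among H2-D1, H2-K1 and the H2-Q genes is uncertain. Without the Ccl4-richest cell all 13 genes stayed at least 2-fold higher, 10 with the interval past 1.5, and the median was 2.64. Without the 8 Control members that carried other types' markers all 13 were again called higher (20.7% of 2050 genes were), with a median of 2.67. Over all 19 alternatives tried the median lay between 1.26 and 3.44, and the median over all compared genes between -0.02 and 1.13. The alternatives drew on the same libraries and most kept a mean CPM filter, so the ranges give no separate support.

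The Retnlg-high activation-positive neutrophils also had higher MHC class I values in the PCB126 library, by less. Of the 10 genes compared there 5 were called higher and none lower, with a median log2 ratio of 1.04 beside 0.18 over all 1991 genes, and H2-D1 had a ratio of 1.67 (1.52 to 1.83). Barcodes under 250 genes served as a stand-in for free RNA. They were 1460 PCB126 barcodes with 2063326 UMIs and 6252 Control barcodes with 9457963 UMIs. Whether they were empty droplets was not tested. They held H2-D1 at 143 CPM in the PCB126 library and 52.7 CPM in the Control library, beside 5258 CPM in the PCB126 members and 2162 CPM in the Control members.

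Interferon-stimulated genes were divided. Of 24 genes 14 could be compared, 8 were called higher in the PCB126 members, among them Gbp2, Gbp5, Ifi27l2a, Ifi47, Isg15, Rsad2 and Slfn1, and 2 lower (Ifitm1 and Ifitm2), with a median log2 ratio of 1.65. Ifi47 and Gbp5, at 15.4 and 27.0 CPM in the Control members, could pass the filter only if at least 2-fold higher. Rsad2, at 44.4 CPM there, could pass only if higher in the PCB126 members. Gbp2, an interferon-induced GTPase that acts against intracellular microbes, had 24.1, 0, 58.3, 35.3, 0, 46.7, 0 and 0 UMIs per 10000 in the PCB126 cells and was present in 12 of 140 Control cells, with a highest value of 125. Its ratio was 18 (12.2 to 26.6) and stayed at 16.9 without the Ccl4-richest cell. Ifi47, a related GTPase, was present in 4 of 8 PCB126 cells and 2 of 140 Control cells, at a ratio of 36.9 (15.1 to 98.8). Isg15, a ubiquitin-like protein, and Rsad2, the antiviral enzyme viperin, had ratios of 6.65 (3.63 to 11.7) and 8.30 (3.65 to 17.7).

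The abundant antiviral membrane protein gene Ifitm1 went the other way, with a ratio of 0.207 (0.140 to 0.294) and 0, 0, 48.5, 0, 2.81, 27.4, 4.41 and 8.26 UMIs per 10000 in the PCB126 cells, against a median of 51.7 in the Control cells. All 8 PCB126 cells were below that median. Because Ifitm1 and Ifitm2 carry most of the UMIs, the list sum per cell had a lower median in the PCB126 cells (66.5) than in the Control cells (96.2), opposite in sign to the median log2 ratio over genes. In the Retnlg-high activation-positive neutrophils the same list had 9 of 16 genes called higher and Ifitm1 lower, with a median of 1.30, Ifi47 at 38.0 (17.3 to 92.2) and Rsad2 at 13.7 (9.77 to 19.3). For thinned cells of 1000 UMIs, Gbp2 had a UMI in 4 of 8 PCB126 members and 4.32% of 139 Control members (1 shallower cell was left out), against 1.68% of PCB126 and 2.41% of Control lymphocytes; unthinned, the shares were 4 of 8 and 8.57% of members and 14.3% and 9.64% of lymphocytes. The lymphocytes had median depths of 6507 and 17590 UMIs.

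**Figure D3:**
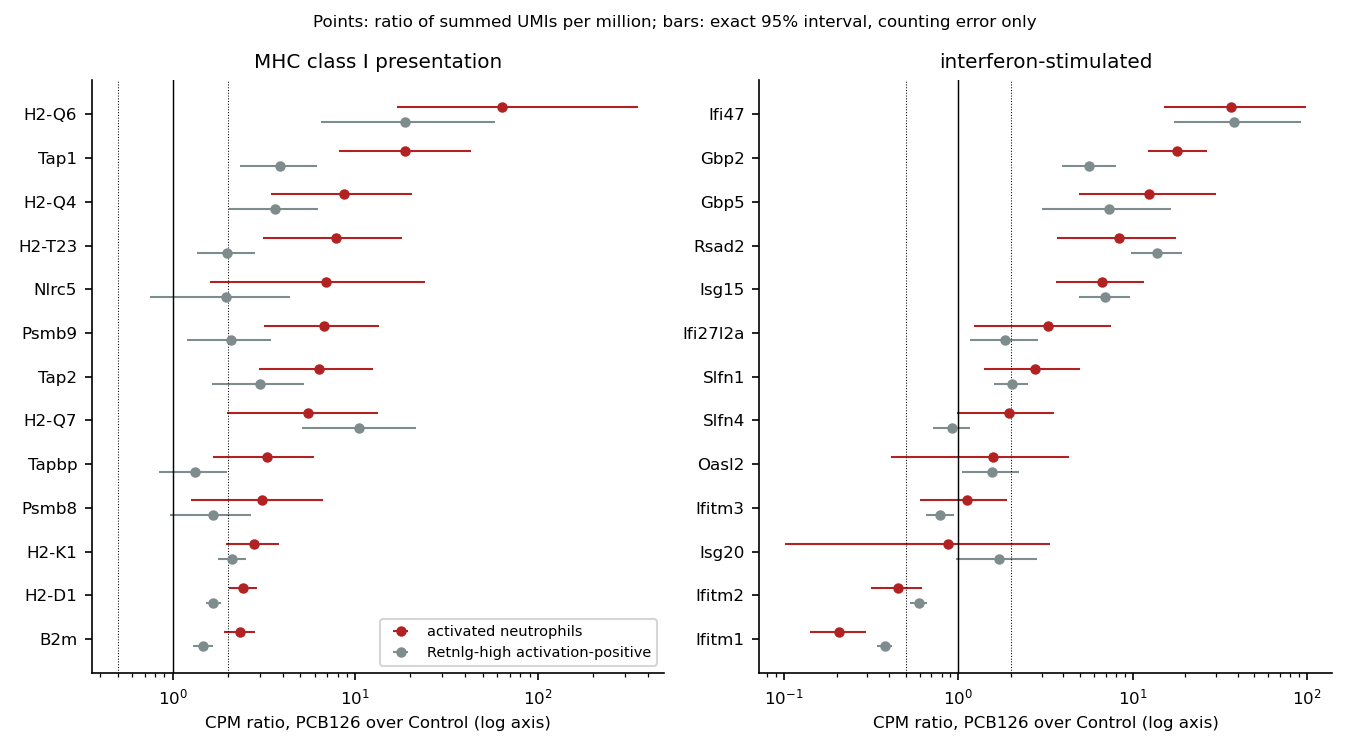
CPM ratios of PCB126 over Control on a log axis, for compared genes reported here of the MHC class I presentation list (left) and the interferon-stimulated list (right), in activated neutrophils (red, 8 against 140 cells) and in Retnlg-high activation-positive neutrophils (grey, 47 against 568 cells); bars are exact 95% intervals for counting error and dotted lines mark 2-fold. All 13 MHC class I points of the activated neutrophils lie right of 2-fold, and Ifitm1 and Ifitm2 lie left of 1 in both classes.

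Iron storage genes were higher in the PCB126 members. Fth1, the ferritin heavy chain that stores iron, had 745, 289, 172, 1090, 886, 236, 110 and 77.1 UMIs per 10000 in the PCB126 cells, against a lowest of 1.96, a median of 106 and a highest of 666 in the Control cells. In 7 of 8 cells it was above the Control median and in 3 above the highest Control cell. The ratio was 3.98 (3.75 to 4.23), beside 1.03 (0.989 to 1.08) in the Retnlg-high activation-positive neutrophils. Ftl1, the light chain, had a ratio of 2.93 (2.64 to 3.25), beside 1.96 in that class. Both ferritins have processed copies in the genome, so some reads may be lost or split. Of 6 genes of the metallothionein and iron storage list 4 could be compared and all 4 were called higher, Mt1 from 3 UMIs against 15 (a ratio of 3.47, 0.644 to 12.3).

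Antioxidant genes went both ways. Of 16 NRF2 and antioxidant genes 13 could be compared, 5 were called higher (Gclm, Osgin1, Prdx5, Slc7a11 and Srxn1) and 2 lower (Gpx1 and Prdx1). Prdx5 had a ratio of 2.43, and 1.26 without the Ccl4-richest cell. Slc7a11, the cystine transporter that supplies glutathione synthesis, had a ratio of 2.88 (2.27 to 3.61; present in 7 of 8 and 117 of 140 cells). Gpx1, a glutathione peroxidase, had 4 UMIs in the PCB126 members and 537 in the Control members, a ratio of 0.129 (0.0351 to 0.333).

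Survival and apoptosis genes went both ways. Of 19 survival and apoptosis genes 13 could be compared, 5 were called higher (Bax, Bcl2a1a, Bcl2a1b, Cflar and Phlda1) and 3 lower (Casp4, Fas and Xiap). Without the Ccl4-richest cell, Casp4 held 2 UMIs in the PCB126 members and Fas and Xiap 1 each, with intervals that included 1. Those of Bax, Bcl2a1a, Bcl2a1b and Phlda1 lay above 1. Bcl2a1b, an anti-apoptotic protein gene induced by NF-kB, had a ratio of 4.19 (2.93 to 5.88), but its near-identical copies Bcl2a1a, at 4.46 (2.5 to 7.58), and Bcl2a1d, at 1.31 (0.344 to 3.56), may share its reads. Cflar fell under the 2-fold limit, to a ratio of 1.78, without the Ccl4-richest cell. Hcar2, a receptor for ketone bodies and niacin, was above the Control median in all 8 PCB126 cells, with a median of 39.5 UMIs per 10000 in the PCB126 cells and 9.10 in the Control cells. It belongs to the immunoregulatory list, of which 6 of 11 compared genes were called higher and none lower (median log2 ratio 1.14, 14 genes in the list).

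Most of the compared granule genes were lower in the PCB126 members. Of 13 secondary and tertiary granule genes 9 could be compared, 8 were called lower and Mmp9 higher, with a median log2 ratio of -1.83 (-1.89 with the 4 genes at 0 set to their bounds); without the rule gene Retnlg 7 of 8 were called lower, with a median of -2.82 (-1.56 with the genes at 0 set to their bounds). Mmp9 had a ratio of 2.11, and 1.55 without the Ccl4-richest cell. Lcn2, the siderophore-binding protein of secondary granules, had 11 UMIs in the PCB126 members and 710 in the Control members, a ratio of 0.269 (0.134 to 0.484), and 0.308 in the Retnlg-high activation-positive neutrophils. Ngp and Camp, made by immature neutrophils, had 0 UMIs in the PCB126 members, but 99.5% and 99.2% of their Control UMIs came from 1 cell each. Without the 8 Control members with other types' markers 7 granule genes were compared, 5 were called lower (19.9% of 2050 genes were) and 1 higher, and the median was -0.60; without Retnlg these were 4 of 6 lower and 1 higher, with a median of -0.55 (-1.11 with the gene at 0 set to its bound). Among 14 adhesion and motility genes, all compared, 5 were called lower (Ceacam1, Coro1a, Itgal, Itgb2 and Selplg), none higher and 9 not called, with a median log2 ratio of -0.21. Selplg, the ligand by which neutrophils roll on selectins, had a ratio of 0.178 (0.0366 to 0.526) and Itgb2, the beta chain of the leukocyte integrins, 0.404 (0.147 to 0.891).

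Receptors for microbes and cytokines were divided as well. Of 24 pattern recognition and signalling receptors 21 could be compared, 5 were called higher (Cd14, Clec4d, Clec4n, Fcgr3 and Tlr2) and 5 lower (Ifngr1, Il1r2, Myd88, Pirb and Tlr13). Without the Ccl4-richest cell Cd14, at 1.38, and Tlr2, at 1.75, fell under the 2-fold limit. Ifngr1, Myd88 and Tlr13 then held 1 UMI each in the PCB126 members. The intervals of all 5 lower genes included 1, while those of Clec4d, Clec4n and Fcgr3 lay above 1. Clec4n, a receptor for fungal sugars also called dectin-2, had a ratio of 4.44 (2.92 to 6.60; present in 6 of 8 and 47 of 140 cells). Of 14 chemokine and lipid chemoattractant receptors 9 could be compared, with Ccr1 called higher and Ltb4r1 lower. Ltb4r1 had 1 UMI in the PCB126 members without the Ccl4-richest cell (ratio 0.616, 0.0152 to 3.66). Cxcr2, through which Cxcl2 draws neutrophils in, had a ratio of 0.702 (0.346 to 1.28). Of the 6 NADPH oxidase genes, which make the oxidative burst, Cybb was called lower, with 1 UMI in the PCB126 members and 285 UMIs in 31 Control members (ratio 0.0609, 0.00154 to 0.342).

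Of 12 genes of the AHR battery and complex 4 could be compared, with 1 called higher (Xdh, from 3 UMIs in the PCB126 members, and 1.66 without the Ccl4-richest cell) and 2 lower (Hsp90ab1 and Tiparp). Cyp1a1, the monooxygenase gene most used as a readout of AHR activity, had 0 UMIs in the 8 PCB126 and the 140 Control members, which at a floor of 3 cells allows a share of cells with a UMI of up to 37.5% and 2.14%; the upper bounds of the exact intervals are 36.9% and 2.60%. In the PCB126 library a Cyp1a1 UMI was held by 6 of 47 Retnlg-high activation-positive (12.8%), 4 of 29 Retnlg-high activation-low neutrophils (13.8%) and 18 of 119 lymphocytes (15.1%), and in the Control library by 3 of 568, 1 of 63 and 0 of 83. Barcodes under 250 genes, the stand-in for free RNA, held Cyp1a1 at 184 CPM in the PCB126 library and 1.37 CPM in the Control library. The shares of the PCB126 neutrophils, at median depths of 3931 and 4288 UMIs, did not exceed that of the lymphocytes, at 6507 UMIs. The lymphocytes came from the same liver and were deeper, so these shares cannot tell expression from background. The source of these UMIs was not tested. Tiparp, an AHR-induced repressor of AHR, had 2 UMIs in 1 PCB126 member and 132 UMIs in 52 Control members, a ratio of 0.263 (0.0315 to 0.969). Glycolysis and hypoxia genes had 1 of 14 compared genes called higher and 5 lower (20 in the list, median log2 ratio -0.61), and heat shock chaperones 0 of 8 higher and 3 lower (12 in the list, median -0.46, or -0.52 with the 2 genes at 0 set to their bounds). The heat shock median turned to 0.34 without the 8 Control members that carried other types' markers.

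The genes furthest from a ratio of 1 were ranked by the bound of the interval nearest to 1, and 12 were taken in each direction. Higher in the PCB126 members were Thbs1, H2-Q6, Ifi47, F3, Ccl4, Gbp2, Cxcl10, H2-Aa, Irgm1, Topors, Gadd45g and Tap1. Several rested on few cells. Thbs1, the matrix protein thrombospondin, and F3, the coagulation starter tissue factor, each had UMIs in 2 of 8 PCB126 cells, with ratios of 38.2 (17.4 to 90.4) and 34.7 (13.1 to 102). Topors came from 1 PCB126 cell and H2-Aa, an MHC class II chain, from 6 UMIs in 3 PCB126 cells against 2 UMIs in 1 Control cell (ratio 52.1, 9.31 to 528). Thbs1 had a ratio of 1.02 in the Retnlg-high activation-positive neutrophils and F3 0.506 (0.0597 to 1.92).

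Among the genes lower in the PCB126 members were Igkc, Ighm, Ngp, Camp, Jchain, Wfdc21, Lyz2, Saa3, Ifitm1, Flna and Gpx1. The immunoglobulin genes Igkc, Ighm and Jchain had 97.8%, 98.7% and 98.7% of their Control UMIs in 1 cell, the one with plasma cell markers. Wfdc21, a small secreted protein gene typical of mature neutrophils, was spread over 97 of 140 Control cells with 607 UMIs and had 0 UMIs in the PCB126 members, which makes it at least 11.7-fold lower there at a floor of 3 counts over the members. Lyz2, which codes for lysozyme, had 0 UMIs against 470, at least 9.02-fold lower, and Saa3, an acute phase protein gene, 0 against 410, at least 7.87-fold lower. Lyz2 had a ratio of 0.896 in the Retnlg-high activation-positive neutrophils, where Wfdc21 was at 0.280 and Saa3 at 0.107. Among the Control members without other types' markers the UMIs were 375 for Wfdc21, 111 for Lyz2 and 167 for Saa3, and at the same floor these genes were at least 9.29-fold, 2.75-fold and 4.14-fold lower in the PCB126 members.

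Red cell transcripts differed strongly. The erythroid list had 1 UMI in the PCB126 members and 14964 UMIs in the Control members, where 26 cells held 10 or more. Hepatocyte genes were at 268 CPM in the PCB126 members and 677 CPM in the Control members. Barcodes under 250 genes held the haemoglobin gene Hbb-bs at 104967 CPM in the PCB126 library and 270637 CPM in the Control library, while the PCB126 members held none and the Control members 14379 CPM. The share of the members' UMIs that RNA of that composition would have to supply to account for their hepatocyte genes was 20.7% in the PCB126 library and 33.7% in the Control library. The same calculation from Hbb-bs gave 0% in the PCB126 members (0.0957% at a floor of 3 UMIs) and 5.31% in the Control members. These shares differ, and the part of free RNA in the members was not tested. Subtracting the profile at the shares from hepatocyte genes left 546 genes called higher and 527 lower, and at the shares from Hbb-bs 399 higher and 509 lower. The MHC class I median was 2.67 and 2.62 after these subtractions.

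Within the Control library alone, the members were set against the 63 Retnlg-high activation-low neutrophils, and genes outside the rule also differed. The classes were cut from the same cells by the activation and Retnlg sums. Genes that vary with the rule genes therefore differ by the choice of cells. These values and the class comparisons below are a description only. Of 2013 genes 375 (18.6%) were at least 2-fold higher in the activated neutrophils and 166 (8.25%) lower. Of the NF-kB list 14 of 23 compared genes were higher and none lower, with a median log2 ratio of 1.31 beside 0.24 over all genes. Icam1 was at 787 CPM in the activated and 40.8 CPM in the activation-low neutrophils, a ratio of 19.3 (11.1 to 36.5). The signalling adaptor Traf1 had a ratio of 12.4 (7.38 to 22.4), Irf1 11.8 (7.43 to 19.8), and the inhibitor genes Nfkbia and Tnfaip3 had 4.76 (4.34 to 5.24) and 3.94 (3.32 to 4.70). The 132 members without other types' markers gave 23.4 for Icam1, 12.7 for Traf1 and 14.8 for Irf1.

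Several effector genes followed the NF-kB list. Cd274, which codes for the T cell checkpoint ligand PD-L1, was at 434 CPM in the activated and 25.1 CPM in the activation-low Control neutrophils, a ratio of 17.3 (8.62 to 40.5). Ccl3 had a ratio of 11.7 (8.31 to 16.9), Csf1 9.09 (5.71 to 15.3) and Il1rn 7.0 (4.75 to 10.7). Of 12 compared survival genes 8 were higher and none lower, with a median of 1.47 and Bcl2a1b at 15.6 (7.43 to 39.4). The most abundant mediators differed little between these classes, Il1b by 1.40 (1.32 to 1.48) and Cxcl2 by 1.58 (1.53 to 1.63). Osm, which codes for the cytokine oncostatin M, and the chemokine gene Ccl6 were lower in the activated neutrophils, with ratios of 0.196 (0.151 to 0.252) and 0.211 (0.173 to 0.257).

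Granule genes outside the rule were lower in the activated Control neutrophils, 9 of 10 compared genes with a median log2 ratio of -2.23. Cd177, a surface protein stored in secondary granules, had a ratio of 0.0708 (0.0433 to 0.110), Lcn2 0.198 (0.181 to 0.215) and Ltf, the iron-binding lactoferrin, 0.101 (0.0829 to 0.123). Ly6g was at 48.2 CPM in the activated and 402 CPM in the activation-low neutrophils. All Ltf UMIs of the activated Control neutrophils came from 1 cell. Mmp8 and Retnlg, which are part of this list, were used by the rule and are left out of this count.

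**Figure D4:**
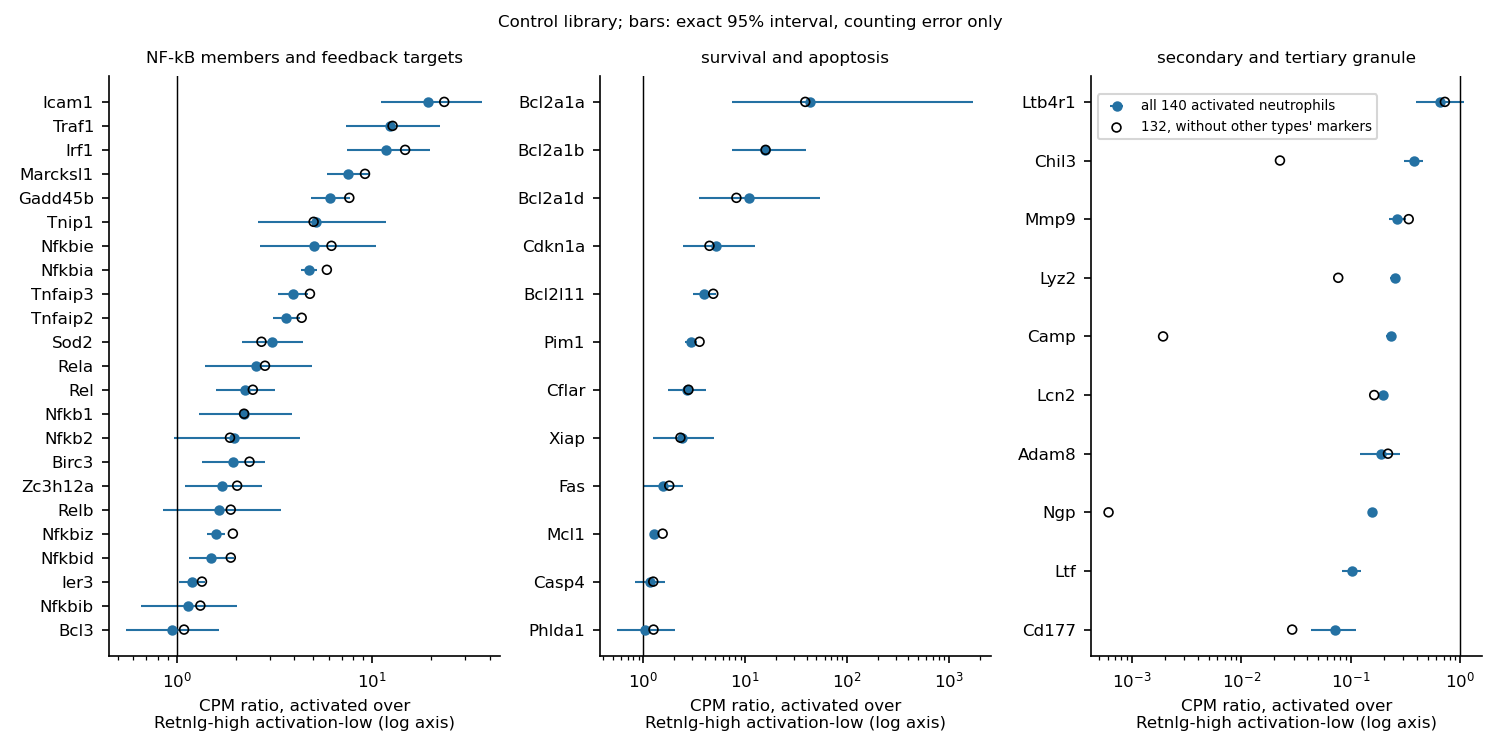
CPM ratios, on log axes, of activated over Retnlg-high activation-low neutrophils in the Control library, for the compared genes of 3 lists; filled points use all 140 members with exact 95% intervals for counting error, open points the 132 members without other types' markers. Nearly all NF-kB and survival genes lie right of 1 and all granule genes left of 1, and the open points of Chil3, Camp, Lyz2 and Ngp lie far left of the filled ones; Ltf has no open point because those members held no Ltf UMI.

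Against the 568 Retnlg-high activation-positive Control neutrophils the differences were smaller. Here 159 of 2041 genes (7.79%) were higher in the activated neutrophils and 77 (3.77%) lower. Of 23 NF-kB genes Icam1, Irf1 and Traf1 were higher and none lower, with a median log2 ratio of 0.37 beside 0.15 over all genes, and 5 of 10 granule genes outside the rule were lower, with a median of -1.17. None of the 7 compared MHC class I genes was higher and H2-T23 was lower. In the PCB126 library 481 of 2071 genes (23.2%) were higher in the 8 activated than in the 47 Retnlg-high activation-positive neutrophils and 455 (22%) lower, with 11 of 19 NF-kB genes higher and 1 lower (median 1.47) and 10 of 13 MHC class I genes higher and none lower (median 1.70).

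In the Control library the limit on the Retnlg sum cut through a graded pattern of Icam1 and Cd274. Activation-positive neutrophils were divided by this sum into 0, 1 to 4, 5 to 19, 20 to 49 and 50 or more, the lowest 2 of which are the members (in the Control library the 132 without other types' markers). The groups above the limit kept every cell, so the 2 sides of the limit were filtered differently in the Control library. In the Control library Icam1 was at 1263, 833, 632, 351 and 157 CPM from the lowest to the highest sum and Cd274 at 801, 415, 279, 228 and 107 CPM. S100a8, used by the rule, was at 24285, 24955, 30950, 56478 and 84770 CPM. In this library neither Icam1 nor Cd274 showed a step at the limit.

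In the PCB126 library the groups held 4, 4, 11, 18 and 18 cells. Icam1 was at 1028, 852, 269, 259 and 0 CPM from the lowest to the highest sum, and Cd274 at 617, 655, 636, 562 and 127 CPM. Ccl3 was at 7950 and 8581 CPM in the members and at 1125, 1225 and 573 CPM above the limit, whereas in the Control library it was at 1603, 1477, 1008, 543 and 336 CPM. H2-D1 was higher in the PCB126 library at every sum, with 3907, 6550, 2544, 2781 and 2828 CPM, against 2465, 2372, 1945, 1761 and 1397 CPM in the Control library. With 4 cells in each of the lowest groups, single cells weigh heavily on these levels.

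**Figure D5:**
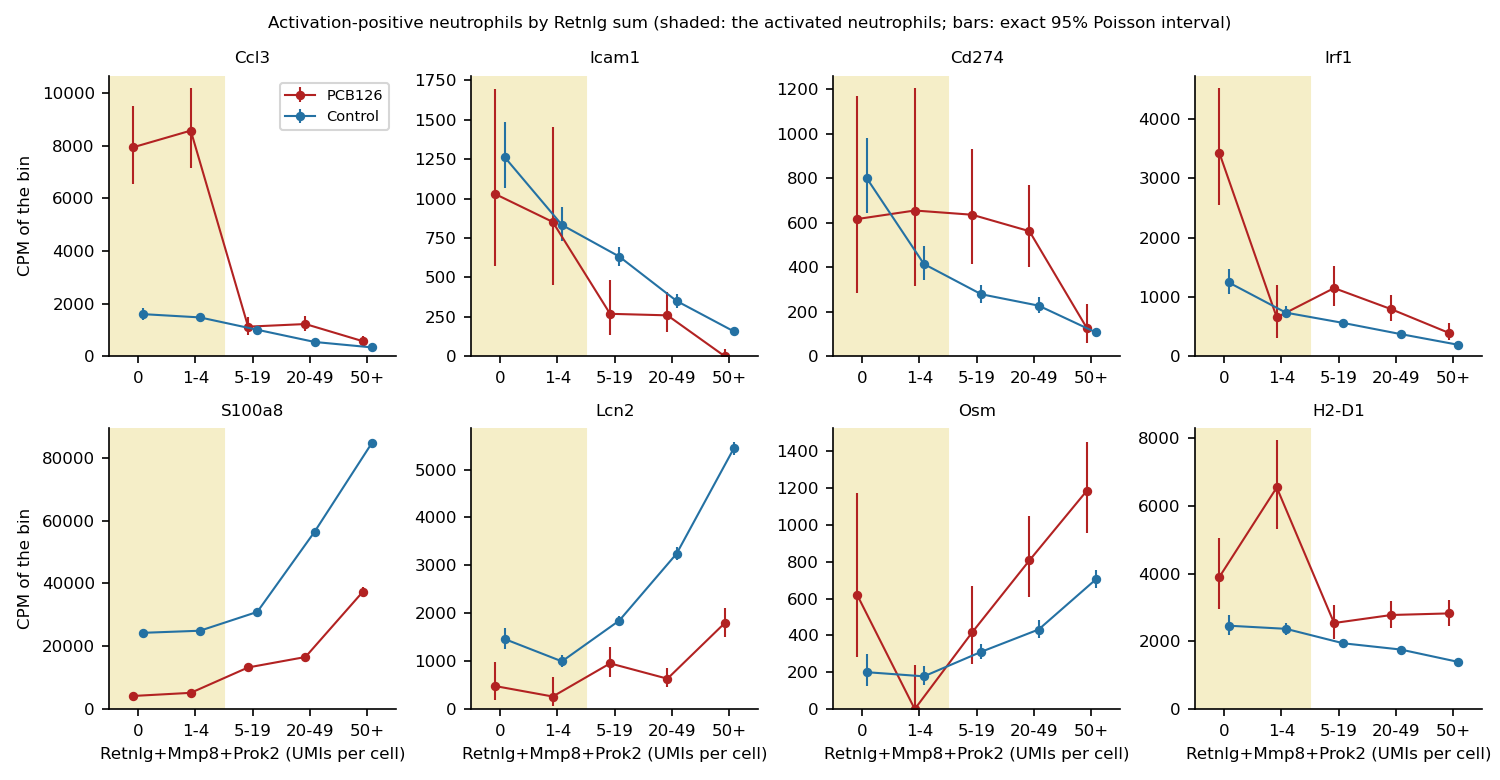
Level of 8 genes (y, CPM of the summed UMIs of the group, each panel with its own scale) in activation-positive neutrophils divided by their Retnlg, Mmp8 and Prok2 sum (x), in the PCB126 library (red, 4, 4, 11, 18 and 18 cells) and the Control library (blue, 40, 92, 183, 176 and 209 cells); bars are exact 95% Poisson intervals and the shaded area marks the members. Icam1 and Irf1 are highest at a sum of 0 in both libraries, S100a8 and Lcn2 are highest at 50 or more, and Ccl3 and H2-D1 of the PCB126 members stand above those of the Control members.

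Values of single cells were also compared among the 140 Control members. The rule genes S100a8 and S100a9, which code for partners in a protein complex, had a Spearman correlation of 0.897 over cells, in UMIs per 10000. Ccl3 and Ccl4 had 0.340, and Icam1 and the rule gene Tnf 0.272. Tnf had 0.245 with Cxcl2 and 0.0679 with Il1b. These cells share 1 library and differ in depth, so the values are a description and the weak ones are no finding.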

How the data were processed

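Both libraries were read as deposited: the matrices the authors made hold unnormalized UMI counts, and the other deposited lists name genes and barcodes. Cell Ranger 6.0.0 wrote the matrices, per the file headers; per the submitters' processing notes Cell Ranger 6.1.1 and Seurat 4.0.1 were run. Which build was used is not given in the sources. Gene rows that share a symbol (112) were summed, and 34049 of 34244 identifiers occur in GENCODE M21 for GRCm38.

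The 8 PCB126 and 140 Control members were found by the rule in the report. For each class in each library the UMIs were added up and scaled to CPM. Ratios are PCB126 over Control, or activated over other neutrophils, with exact conditional binomial intervals; shares have Clopper-Pearson and levels Poisson intervals. Log2 ratios add 0.5 counts to each sum. The members, the lists and the comparisons were chosen with earlier results of these data known. Named genes were the 12 in each direction furthest from 1 by the interval bound, and otherwise the genes of the lists. Some of these genes are not reported here. Calls were checked on simulated counts. Scrublet scores were used for an alternative only: the 11 PCB126 and 28 Control cells with the highest scores held no member. Libraries shared 3 barcodes, none a cell. Tools were scanpy 1.11.5, pandas 2.3.3, scipy 1.17.1, numpy 2.4.6 and matplotlib 3.10.9 under Python 3.11.15.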

Additional observations from a re-analysis of the deposited data

Results flagged for a closer look

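5 genes had ratios on opposite sides of 1 in the activated and in the Retnlg-high activation-positive neutrophils, by more than 2-fold in each; the difference between the classes was not tested. The log2 ratio of PCB126 over Control for Ccl4 was 3.85 in the activated and -1.07 in the Retnlg-high cells, and 70.5% of the PCB126 UMIs of the activated cells came from 1 cell. For Cd14, a co-receptor for bacterial lipopolysaccharide, the values were 1.02 and -1.83, and for Sod2 1.41 and -1.86; without that cell the activated values were 2.41 for Ccl4, 0.48 for Cd14 and 0.54 for Sod2, the last 2 under the 2-fold limit. For the MHC class II genes Cd74 and H2-Aa they were 2.22 and -2.51, and 5.5 and -2.93; H2-Aa rests on 6 UMIs in the PCB126 and 2 UMIs in the Control activated cells.

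Barcodes over the mitochondrial limit were outside the comparisons. Among them 14 PCB126 and 5 Control barcodes met every other part of the rule, more than the 8 PCB126 members themselves.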

How the results depend on the processing

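No paired analysis was possible because each group has 1 library. The share of cells (ratio 0.0938) and the share of neutrophils (0.530) stayed below 1 under all 12 alternatives each, between 0.0402 and 0.146 and between 0.263 and 0.956. Counts of called genes depended on the cells and the filter. Genes at least 2-fold lower in the PCB126 members numbered 877 at a mitochondrial limit of 10%, 312 with the Retnlg sum under 10, 110 at a mean of at least 200 CPM and 136 with no limit on the Retnlg sum, beside 474. Genes at least 2-fold higher numbered 245 at a mitochondrial limit of 50%, 987 after thinning each member to 1000 UMIs, 116 at 200 CPM, 1185 without a filter and 150 with no limit on the Retnlg sum, beside 427. The log2 ratio of Ngp turned to 1.12 and that of Camp to 0.47 with an activation sum of at least 4, and to 1.43 and 0.58 without the Control members with other types' markers; H2-Aa turned to -1.11 with no limit on the Retnlg sum. The median log2 ratio over all compared genes, 0.29, was 0.74 and -0.02 at mitochondrial limits of 10% and 50%, 1.13 with thinned members and 0.41 without the PCB126 cell richest in Ccl4. Of 387 list medians recomputed, 366 stayed between the medians of the single genes' lower and upper bounds. That range is wide and is not an interval of the list median. For the granule list without the PCB126 cell richest in Ccl4 it ran from -5.96 to -0.49. The medians of the NF-kB, AHR, glycolysis, heat shock, neutrophil identity and both receptor lists took both signs. The alternatives without other types' markers, without the Retnlg limit, without the PCB126 cell richest in Ccl4 and with free RNA scaled by Hbb-bs were chosen after seeing the data. The cause of these changes was not tested. The 8 PCB126 members and their 29857 UMIs limit every comparison between the libraries: a gene of 50 CPM stands for 1 or 2 UMIs there, and single cells can set a ratio.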
